A study of Mus musculus with 12 samples.

Results

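The genes of the mitochondrial genome were followed in follicular (FO) B cells sorted from the spleen of mice, before and after stimulation with IFNa, CpG or both. The members are the genes that the deposited count table places on chromosome MT, and they make up 24 of its 22561 genes: 13 protein-coding genes, 2 rRNA genes and 9 tRNA genes. The annotation of GRCm38 used here (GENCODE M21) has 37 genes on this chromosome, and the other 13, all of them tRNA genes, are not analysed here. Each of the 4 groups had 3 samples: unstimulated cells, and cells that received IFNa (a type I interferon), CpG (an oligodeoxynucleotide sensed by TLR9) or CpG plus IFNa for 12 h. The cells came from C57BL6 mice that were 10 weeks old, without any genetic change named in the labels, and the sources used here give neither a culture time for the unstimulated cells nor whether the 3 samples of a group came from separate mice. The p-values therefore measure the spread between these samples, which may be technical. The libraries were made by BRB-seq, in which reverse transcription from oligo(dT) primers labels every molecule with the barcode of its sample and a random tag (unique molecular identifier, UMI), so that each count stands for a captured molecule and not for transcript length.

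The mitochondrial genome is a small circular DNA that is transcribed from both strands into long precursors. The tRNAs lie between the other genes, and their excision releases the mRNAs and the rRNAs. The mRNAs encode core subunits of respiratory complexes I, III, IV and V, the other subunits of which are encoded in the nucleus, translated in the cytoplasm and imported. Most mitochondrial mRNAs receive a short poly(A) tail, which in some of them completes the stop codon. B cells activated through TLR9 grow and enter the cell cycle, with a large increase in nuclear mRNA.

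Since the library preparation starts from oligo(dT), the stretches of A in the transcripts are shown first. These are the longest runs of A in the genes with most of the counts, with 10 bases on each side, on the strand of the gene and with the run in capitals:
mt-Rnr2: taaacttgctAAAAAAAcaacaaaatc
mt-Nd2: actaatcaacAAAAAAAAcccacgatca
mt-Nd4: atcaagccctAAAAAAAcctgaacaaa
mt-Nd5: aaacgacatcAAAAAAAtcattgcctt
mt-Co1: actactccggAAAAAAAgaacctttcg
mt-Nd1: atcttctatgAAAAAActttctaccc
mt-Rnr1: agcaaaccctAAAAAggtattaaag
mt-Cytb: caaacatacgAAAAAcacacccatt
mt-Nd6: ggttagcattAAAgccttcacct
mt-Nd6 opposite strand: taaataaattAAAAAAActattaaacc
A run of at least 7 A was present in 5 of the 15 protein-coding and rRNA genes. It began at base 395 of mt-Rnr2, 139 of mt-Nd2, 61 of mt-Nd4, 895 of mt-Nd5 and 789 of mt-Co1, counted from the start of each gene. Cut into windows of 519 bases, the length of mt-Nd6, 8.66% of the windows of all other annotated transcripts held AAAAAAA and 9.70% held TTTTTTT. The 5 genes with such a run are longer, at 1038 to 1824 bases, so that these shares stand beside mt-Nd6 only. In mt-Nd6, the only mRNA encoded on the other strand, the longest run had 3 A, whereas the strand opposite to it had a run of 7 A. Whether primers annealed to these runs was not tested.

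The annotated 3′ ends of 6 mRNA genes are given, with the last whole or partial codon in capitals:
mt-Nd1: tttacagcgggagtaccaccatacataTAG
mt-Nd2: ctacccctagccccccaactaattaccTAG
mt-Co1: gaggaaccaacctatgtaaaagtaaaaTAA
mt-Nd4: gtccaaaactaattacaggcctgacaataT
mt-Cytb: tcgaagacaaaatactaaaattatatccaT
mt-Co3: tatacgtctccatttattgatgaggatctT
In mt-Nd4, mt-Cytb and mt-Co3 the annotated gene ends with a single T, and a poly(A) tail supplies the remaining bases of the stop codon. An oligo(dT) primer can anneal to such a tail, which the genome does not encode. The annotated ends of mt-Nd1 (MT:3707) and mt-Nd2 (MT:4951) overlap tRNA genes on the same strand, mt-Ti from MT:3706 and mt-Tw from MT:4950. The last bases of their TAG thus lie within a tRNA gene, and whether the mRNAs keep them was not tested.

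Another property of these sequences bears on the counting. The mouse nuclear genome carries copies of mitochondrial DNA, and 12 annotated pseudogenes shared identical windows of 81 bases, the length of the insert reads, with a mitochondrial mRNA. On chromosome 1, 7 of them form a block at chr1:24611535-24616197 (GRCm38, minus strand) that follows the order of the mitochondrial genes. The last 30 bases of the longest identical run are given for 3 pairs:
mt-Co3: ctatacgtctccatttattgatgaggatct
Gm28437: ctatacgtctccatttattgatgaggatct
mt-Co2: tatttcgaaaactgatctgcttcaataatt
Gm28661: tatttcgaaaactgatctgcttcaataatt
mt-Atp6: ctagtaagcctatatctacatgataataca
Gm10925: ctagtaagcctatatctacatgataataca
The identical runs were 783 bases long for mt-Co3, 681 for mt-Co2 and 678 for mt-Atp6. Of the windows of 81 bases, 99.9% were shared for mt-Co3, 99.5% for mt-Co2, 99.5% for mt-Atp6, 98.6% for mt-Nd4l and 97.8% for mt-Nd3. In mt-Nd4 the share was 61.3%, in mt-Co1 37.1%, in mt-Nd2 5.12% and in mt-Nd5 0.975%, and in mt-Nd1, mt-Nd6, mt-Cytb and both rRNA genes it was 0. A read from a shared window fits both places equally well, and how the authors treated such reads is not given in the sources used here.

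Of the 24 genes, 14 passed the filter on low counts and were tested: 10 mRNAs, both rRNAs and the tRNAs mt-Te and mt-Tp. The 3 mRNAs that did not pass were mt-Nd3 with 13 counts in all 12 samples together, mt-Nd4l with 7 and mt-Atp8 with 2. The first and the second lie almost entirely within shared windows, whereas mt-Atp8 has no annotated copy, although the chromosome 1 block extended by its order places one at chr1:24614609-24614812. Of the tRNAs, mt-Tn had 21 counts, mt-Tc 20, mt-Tt, mt-Tq and mt-Tf 2 each, and mt-Ta and mt-Tm were at 0. In 8 of the 24 genes no sample had more than 3 counts, the level taken here as the limit of detection. Libraries held from 922450 to 2923865 counts. Levels are given below as CPM (counts scaled to the same library total) with library sizes adjusted by edgeR's TMM factors, a gene is called where the quasi-likelihood test of edgeR over 9431 genes gave an adjusted p (Benjamini-Hochberg) under 0.1, and levels of different genes are not compared. The genes passed the filter partly through the groups in which they are high, so that their counts and medians are descriptions.

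Mitochondrial RNA took a smaller share of all counts after CpG. The share of the 24 genes was 7.70%, 7.01% and 6.06% in the unstimulated samples, 6.46%, 8.52% and 5.91% with IFNa, 3.29%, 4.85% and 4.58% with CpG, and 2.99%, 3.52% and 3.34% with CpG plus IFNa. All 6 samples with CpG thus lay below all 6 without it, while the unstimulated and IFNa samples overlapped. The mean share was 6.92% ± 0.828 in unstimulated cells, 6.96% ± 1.37 with IFNa, 4.24% ± 0.834 with CpG and 3.28% ± 0.267 with CpG plus IFNa (SD, n = 3). The mRNAs alone took 3.08% ± 0.236, 2.35% ± 0.343, 1.98% ± 0.258 and 1.69% ± 0.245 in the same order, and the rRNAs 3.83% ± 0.60, 4.61% ± 1.21, 2.26% ± 0.578 and 1.59% ± 0.196. With IFNa alone, the mRNA share was thus lower than in unstimulated cells in every sample (1.97%, 2.63% and 2.44% against 3.27%, 3.17% and 2.82%), whereas the rRNA share overlapped. These are shares of a total, and less mitochondrial RNA per cell, more nuclear mRNA per cell and another mix of cells cannot be told apart in bulk samples.

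**Figure D1:**
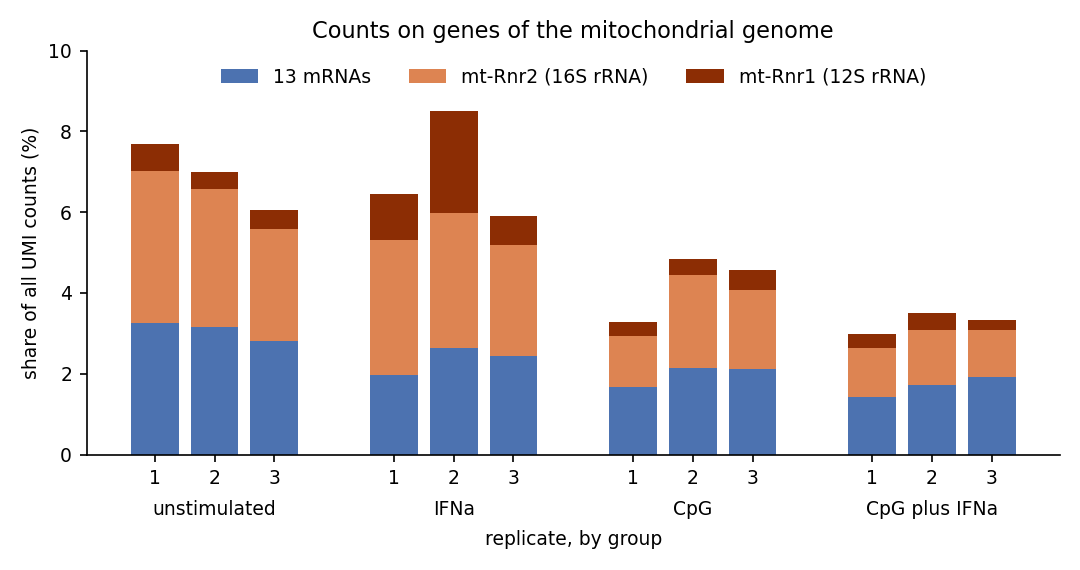
Share of all UMI counts on mitochondrial genes in each of the 12 samples, in percent, by group, in stacked bars for the 13 mRNAs, mt-Rnr2 and mt-Rnr1 without the tRNAs. With all 24 genes, the 6 samples with CpG lie between 2.99% and 4.85%, below the 6 samples without it at 5.91% to 8.52%.

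Against unstimulated cells, CpG lowered 9 of the 14 genes tested and raised 1, where 38.4% of all genes tested were called lower and 36.5% higher. With CpG plus IFNa 12 were lower and 1 higher, against 38.8% and 37.6% of all genes. IFNa alone lowered 5 and raised 2, against 11.9% and 12.4% of all genes, and the 5 became 3 without unstimulated replicate 1, 1 without unstimulated replicate 2 and 2 without IFNa replicate 1. The median over the 14 genes of the log2 fold change was -0.69 with CpG, -0.69 with CpG plus IFNa and -0.09 with IFNa, and that of all genes tested -0.03, -0.01 and 0.00. Samples of the compared groups did not overlap in 10, 10 and 6 of the 14 genes, and in 73.2%, 73.9% and 32.4% of all genes. These 3 comparisons share the unstimulated samples. The directions hold relative to the other genes of the cell: on a scale set by the mitochondrial mRNAs themselves, 2 of the 14 genes were called lower with CpG, 3 with CpG plus IFNa and 0 with IFNa. On it the sign of mt-Nd1, mt-Nd2, mt-Nd5, mt-Co3, mt-Rnr1 and mt-Te, called or not, turned with CpG and with CpG plus IFNa, and with both stimuli also that of mt-Nd6 and mt-Co2. The ranges of adjusted p given below are over the other alternatives and leave this scale out.

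**Figure D2:**
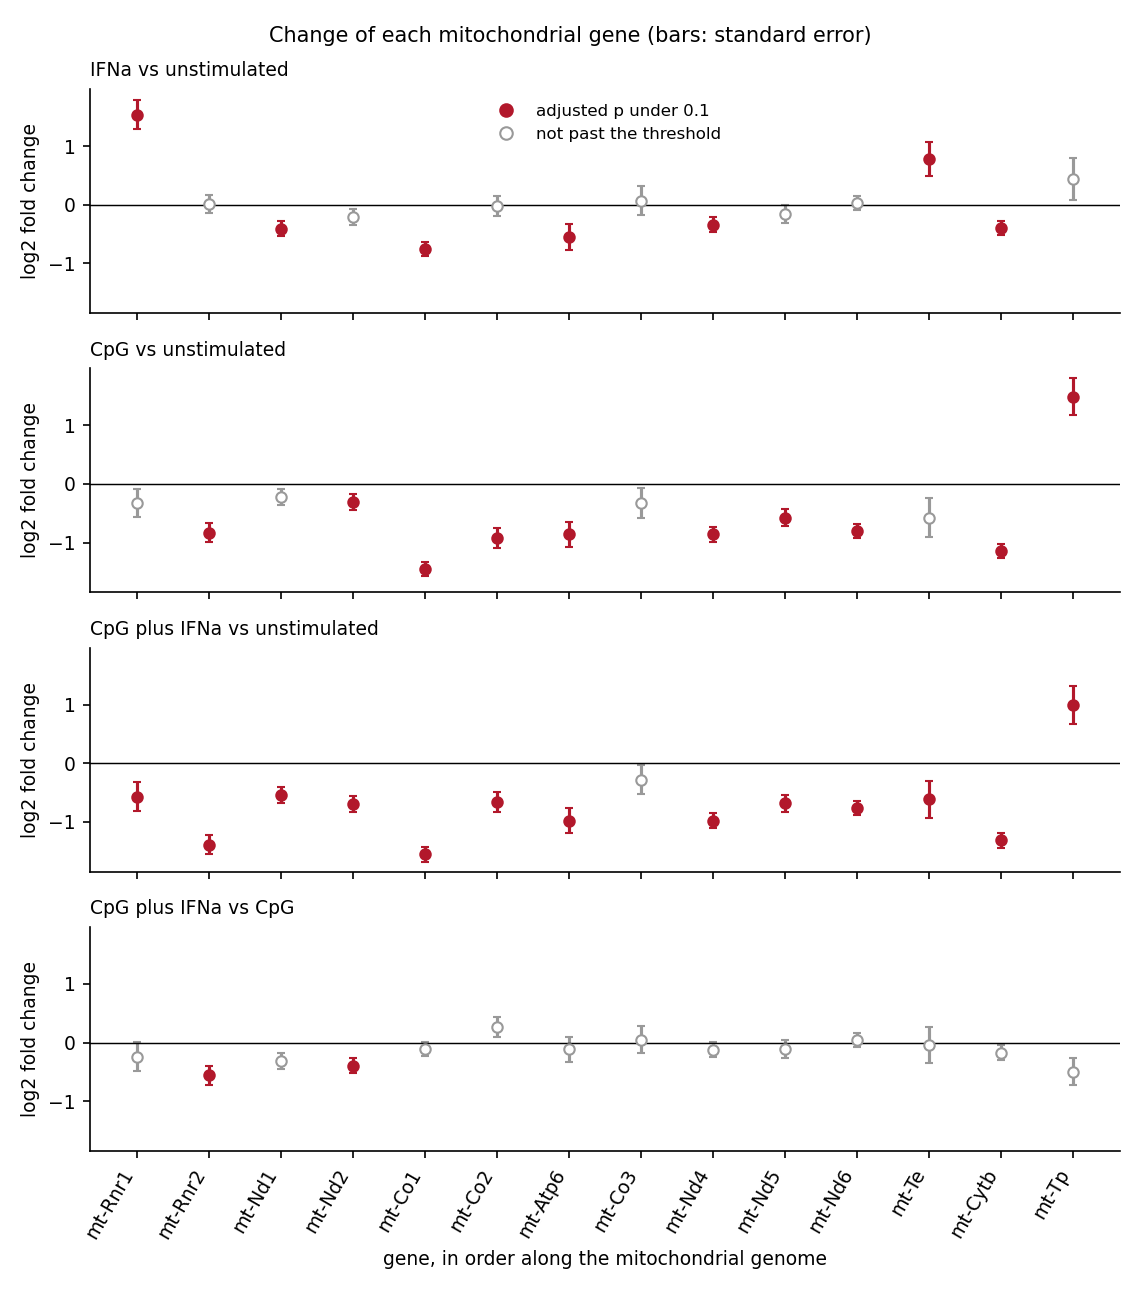
Log2 fold change with its standard error for each of the 14 mitochondrial genes tested, in 4 panels for IFNa, CpG and CpG plus IFNa against unstimulated cells and CpG plus IFNa against CpG, from edgeR on TMM-scaled counts. Filled points have an adjusted p under 0.1. With CpG, mt-Co1 at -1.45 and mt-Cytb at -1.14 are lowest and mt-Tp at 1.49 is highest, and on a scale set by the mitochondrial mRNAs 6 of the 14 genes turn sign with CpG and 8 with CpG plus IFNa.

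Complex I (NADH dehydrogenase) takes electrons from NADH and passes them to ubiquinone, and 7 of its subunits are mitochondrially encoded. mt-Nd1 (MT:2751-3707) was at 8061, 7996 and 6511 CPM in unstimulated samples, 4576, 6255 and 6160.0 with IFNa, 5717, 7226 and 6363 with CpG, and 4545, 5295 and 5712 with CpG plus IFNa. Of the CpG samples 1 lay within the range of the unstimulated ones and 2 below it, whereas both groups with IFNa lay entirely below. Its log2 fold change was -0.23 (SE 0.13, adjusted p = 0.129) with CpG, not past the threshold, -0.41 (SE 0.13, adjusted p = 0.0272) with IFNa and -0.54 (SE 0.13, adjusted p = 0.000614) with CpG plus IFNa. The call with IFNa was lost without unstimulated replicate 1 (adjusted p = 0.116), without unstimulated replicate 2 (0.12) without IFNa replicate 1 (0.167) and on the scale of the mitochondrial mRNAs (0.798). With CpG the adjusted p ran from 0.0239 to 0.455 over the alternatives and passed the threshold in 7 of them.

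mt-Nd2 (MT:3914-4951), another membrane subunit of complex I, was at 4655, 4326 and 3989 CPM in unstimulated samples, 3137, 4021 and 4023 with IFNa, 2848, 3656 and 4013 with CpG, and 2214, 2682 and 3108 with CpG plus IFNa. The samples that received both stimuli lay below every unstimulated sample, and 1 CpG sample overlapped with the unstimulated ones. mt-Nd2 fell, with a log2 fold change of -0.30 with CpG (SE 0.14, adjusted p = 0.0462) and -0.70 with CpG plus IFNa (SE 0.14, adjusted p = 3.19e-05). The call with CpG was lost without unstimulated replicate 1 (adjusted p = 0.188), unstimulated replicate 2 (0.111) or CpG replicate 1 (0.351) and without the filter (0.106), over a range from 0.00762 to 0.351.

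mt-Nd4 (MT:10167-11544) and mt-Nd5 (MT:11742-13565) encode 2 large subunits of the proton-pumping membrane arm. mt-Nd4 was at 6492, 6316 and 5200.1 CPM in unstimulated samples, 4050.1, 5132 and 5060.3 with IFNa, 2997, 3379 and 3550.0 with CpG, and 2708, 2907 and 3515 with CpG plus IFNa. Every stimulated sample was thus below every unstimulated one, and those with CpG were also below those with IFNa alone. It fell with each stimulus, with log2 fold changes of -0.86 with CpG (SE 0.13, adjusted p = 4.47e-07), -0.98 with CpG plus IFNa (SE 0.13, adjusted p = 3.54e-08) and -0.34 with IFNa (SE 0.13, adjusted p = 0.0588). The last of these calls was lost without unstimulated replicate 1 (0.22), unstimulated replicate 2 (0.187) or IFNa replicate 1 (0.248), over a range from 0.0152 to 0.248, and it was 0.96 on the scale of the mitochondrial mRNAs. mt-Nd5 was at 3271, 2269.8 and 2526 CPM in unstimulated samples, 2215, 2697 and 2306 with IFNa, 1259, 2058 and 2096 with CpG, and 1592, 1873 and 1549 with CpG plus IFNa. The log2 fold change was -0.58 with CpG (SE 0.15, adjusted p = 0.00102) and -0.69 with both (SE 0.15, adjusted p = 0.000137), and with IFNa alone its difference was -0.16 (adjusted p = 0.508). The IFNa and unstimulated samples of mt-Nd5 overlapped.

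mt-Nd6 (MT:13552-14070, minus strand) is the single mRNA transcribed from the opposite strand. It was at 2863, 2423 and 2587 CPM in unstimulated samples, 2556, 3130.3 and 2329.8 with IFNa, 1342, 1555 and 1610.0 with CpG, and 1320.0, 1572 and 1748 with CpG plus IFNa. The IFNa samples lay on both sides of the unstimulated ones, while all samples with CpG lay below all without it. The log2 fold changes were -0.80 with CpG (SE 0.13, adjusted p = 1.04e-06), -0.76 with both (SE 0.12, adjusted p = 2.26e-06) and 0.03 with IFNa (SE 0.12, adjusted p = 0.917). The strand setting of the counting is not given in the sources used here, and mt-Nd6 overlaps the end of mt-Nd5 on the other strand, so that RNA of mt-Nd6 and antisense RNA of the same stretch cannot be told apart.

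mt-Cytb (MT:14145-15288) encodes cytochrome b, the only mitochondrially encoded subunit of complex III, which passes electrons on to cytochrome c. Its level was 5287, 5853 and 4762 CPM in unstimulated samples, 3563, 4445 and 4076 with IFNa, 2155, 2559.7 and 2488 with CpG, and 1769.5, 2246 and 2371 with CpG plus IFNa. The unstimulated, IFNa and CpG groups followed each other without overlap, and the samples with both stimuli overlapped with those with CpG. mt-Cytb was 2.21-fold lower with CpG (log2 fold change -1.14, SE 0.13, adjusted p = 1.34e-09), 2.49-fold lower with both (-1.32, SE 0.13, adjusted p = 5.38e-11) and 1.32-fold lower with IFNa (-0.40, SE 0.12, adjusted p = 0.0224). Without unstimulated replicate 2 (0.141) or IFNa replicate 1 (0.104) the last call was lost, over a range from 0.00408 to 0.141, and on the scale of the mitochondrial mRNAs it was 0.832.

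Complex IV (cytochrome c oxidase) reduces oxygen, and mt-Co1 (MT:5328-6872) encodes its catalytic subunit. Of the 14 genes, mt-Co1 had the lowest log2 fold change with CpG and with CpG plus IFNa. It was at 1901, 1959.6 and 1739 CPM in unstimulated samples, 962, 1229.5 and 1125 with IFNa, 584, 717 and 744 with CpG, and 539, 654 and 709 with CpG plus IFNa. The unstimulated samples were thus above every stimulated one, and the IFNa samples above every sample with CpG. mt-Co1 was 2.74-fold lower with CpG (log2 fold change -1.45, SE 0.12, adjusted p = 2.7e-12), 2.94-fold lower with both (-1.56, SE 0.12, adjusted p = 4.02e-13) and 1.69-fold lower with IFNa alone (-0.75, SE 0.12, adjusted p = 1.14e-05). These 3 calls held with each of the 12 libraries left out in turn, and on the scale of the mitochondrial mRNAs that with IFNa was lost (-0.44, adjusted p = 0.127). The effect of IFNa differed with and without CpG: against CpG alone, CpG plus IFNa gave a difference of -0.10 (SE 0.12, adjusted p = 0.678), and the interaction was 0.65 (SE 0.17, adjusted p = 0.012), or 0.55 (adjusted p = 0.355) on the scale of the mitochondrial mRNAs.

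The other subunits of complex IV had few counts. mt-Co2 (MT:7013-7696), which accepts electrons from cytochrome c, was at 69.2, 65.2 and 59.1 CPM in unstimulated samples, 55.5, 63.2 and 70.2 with IFNa, 26.4, 34.9 and 39.9 with CpG, and 35.5, 42.1 and 44.2 with CpG plus IFNa. All samples with CpG were below all samples without it. The log2 fold change was -0.92 with CpG (SE 0.17, adjusted p = 2.25e-05), -0.66 with both (SE 0.16, adjusted p = 0.000627) and, not past the threshold, -0.02 with IFNa (SE 0.17, adjusted p = 0.945). mt-Co3 (MT:8607-9390) was at 23.7, 17.1 and 18.5 CPM in unstimulated samples, 23.2, 20.1 and 19.8 with IFNa, 17.8, 17.8 and 12.5 with CpG, and 14.7, 15.9 and 18.5 with CpG plus IFNa. All samples with CpG, with or without IFNa, lay below those with IFNa alone, the unstimulated samples overlapped with each group, and no comparison passed the threshold (adjusted p from 0.171 to 0.986).

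Complex V (ATP synthase) has mt-Atp6 (MT:7927-8607), part of its proton channel, and mt-Atp8. mt-Atp6 was at 31.8, 37.4 and 39.7 CPM in unstimulated samples, 28.3, 20.7 and 26.7 with IFNa, 17.8, 17.8 and 23.5 with CpG, and 22.4, 16.6 and 17.0 with CpG plus IFNa. All stimulated samples lay below the unstimulated ones. mt-Atp6 fell with each stimulus, by a log2 fold change of -0.86 with CpG (SE 0.21, adjusted p = 0.000686), -0.98 with both (SE 0.21, adjusted p = 0.000108) and -0.55 with IFNa (SE 0.22, adjusted p = 0.0733). The call with IFNa was lost without unstimulated replicate 2 (0.153), unstimulated replicate 3 (0.195), IFNa replicate 2 (0.264) or IFNa replicate 3 (0.105), over a range from 0.0357 to 0.264. It was also lost with DESeq2 (0.193), without the filter (0.146) and on the scale of the mitochondrial mRNAs (0.53).

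**Figure D3:**
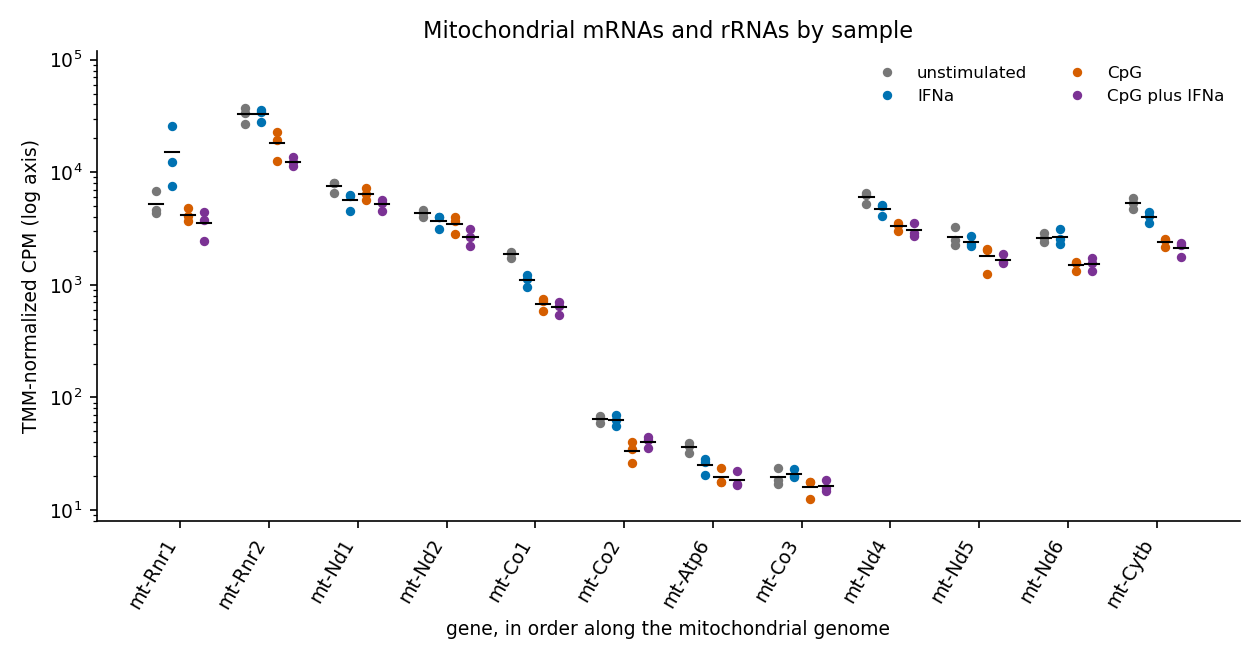
Level of the 10 mRNAs and 2 rRNAs tested in each of the 12 samples, in TMM-scaled CPM on a log axis, by gene along the mitochondrial genome, with 1 point a sample, colours for the groups and a line at each group's mean. mt-Co1 and mt-Cytb step down from unstimulated to IFNa to CpG without overlap, and mt-Rnr1 is high in the IFNa samples, at 7526 to 25938 CPM.

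The 2 rRNAs, which form the cores of the small and the large subunit of the mitochondrial ribosome, moved apart from each other with IFNa. mt-Rnr2 (MT:1094-2675), the large rRNA, was at 37504, 33511 and 26872 CPM in unstimulated samples, 35978, 34486 and 28188 with IFNa, 12595, 22847 and 19539 with CpG, and 12231, 13752 and 11326 with CpG plus IFNa. The unstimulated and IFNa samples overlapped, and all samples with CpG lay below them. mt-Rnr2 was 1.78-fold lower with CpG (log2 fold change -0.83, SE 0.16, adjusted p = 3.24e-05) and 2.62-fold lower with both (-1.39, SE 0.16, adjusted p = 4.37e-09), and its log2 difference with IFNa was 0.01 (SE 0.16, adjusted p = 0.975).

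mt-Rnr1 (MT:70-1024), the small rRNA, was at 6835, 4329.9 and 4609 CPM in unstimulated samples, 12347, 25938 and 7526 with IFNa, 3660.5, 4086 and 4845 with CpG, and 3764, 4409 and 2466 with CpG plus IFNa. Each IFNa sample was above every other sample, but they differed among themselves, with replicate 2 the highest. mt-Rnr1 was 2.90-fold higher with IFNa (log2 fold change 1.54, SE 0.25, adjusted p = 1.61e-05), and without IFNa replicate 2 the log2 fold change was 0.92 (adjusted p = 0.000176). The call held with each of the 12 libraries left out, and its adjusted p ran from 1.15e-32 to 0.00457 over the alternatives. The SD was 9548 CPM with IFNa and 600 to 1373 CPM in the other groups. Since the fit shares its estimate of the spread over the groups, these p-values do not measure the spread of the IFNa samples alone. With CpG the difference was -0.33 (SE 0.25, adjusted p = 0.237), and it was called lower without IFNa replicate 2 (-0.31, adjusted p = 0.0857) and without the filter (-0.27, adjusted p = 0.0712). With both stimuli, where mt-Rnr1 fell, the difference was -0.57 (SE 0.25, adjusted p = 0.0394). The call with both stimuli was lost without unstimulated replicate 1 (0.272) or CpG plus IFNa replicate 3 (0.242) and with DESeq2 (0.224), over a range from 0.000865 to 0.272. The interaction was -1.78 (SE 0.35, adjusted p = 0.000763), and -1.17 (adjusted p = 0.00112) without IFNa replicate 2, and with CpG plus IFNa against CpG the difference was -0.24 (SE 0.25, adjusted p = 0.618).

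The ratio of mt-Rnr1 to mt-Rnr2 counts, in which the scaling between samples cancels, was 0.161 ± 0.0280 in unstimulated cells, 0.454 ± 0.261 with IFNa, 0.239 ± 0.0564 with CpG and 0.282 ± 0.0561 with CpG plus IFNa (SD, n = 3). In the 3 IFNa samples it was 0.343, 0.752 and 0.267. The lowest of these was within the range of the samples with CpG, and all were above the unstimulated samples, the highest of which was at 0.182.

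Among the tRNAs, which carry amino acids to the mitochondrial ribosome, mt-Te (MT:14071-14139) and mt-Tp (MT:15356-15422), both on the minus strand, had counts enough to be tested. mt-Tp, the tRNA for proline, was at 6.37, 9.63 and 12.4 CPM in unstimulated samples, 11.1, 14.6 and 12.2 with IFNa, 21.5, 24.9 and 32.9 with CpG, and 11.5, 21.7 and 22.6 with CpG plus IFNa. It is the only one of the 14 genes that was called higher with CpG (2.81-fold, log2 fold change 1.49, SE 0.31, adjusted p = 7.85e-05), and it rose by 0.995 with both (SE 0.32, adjusted p = 0.00598). The CpG samples were above all others but 2 of those with both stimuli, and its counts were between 7 and 66 per sample. mt-Te, the tRNA for glutamate, was at 20.9, 19.3 and 14.1 CPM in unstimulated samples, 15.1, 35.3 and 38.9 with IFNa, 9.21, 12.8 and 14.0 with CpG, and 7.64, 12.8 and 14.4 with CpG plus IFNa. Of the IFNa samples 1 lay within the range of the unstimulated ones and 2 above all other samples.

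The log2 fold change of mt-Te was 0.77 with IFNa (SE 0.29, adjusted p = 0.0593), -0.57 with CpG (SE 0.33, adjusted p = 0.118) and -0.61 with both (SE 0.32, adjusted p = 0.0818). With CpG it was called lower without unstimulated replicate 3 (0.0657) or IFNa replicate 1 (0.093) and with the replicate block (0.0733). The same held with upper quartile factors (0.0689) and with MT and rRNA genes left out of the scaling (0.0989). The call with IFNa was lost without unstimulated replicate 3 (0.252), IFNa replicate 2 (0.177) or IFNa replicate 3 (0.25), and by library size only (0.105) and DESeq2 (0.164), over a range from 0.00507 to 0.252. That with both stimuli was lost without unstimulated replicate 1 (0.264), unstimulated replicate 2 (0.176), CpG replicate 2 (0.101) or CpG plus IFNa replicate 1 (0.28), and with DESeq2 (0.109) or no filter (0.185), over a range from 0.0399 to 0.28. On the scale of the mitochondrial mRNAs its log2 fold change was 0.21 (adjusted p = 0.525). mt-Te lies between mt-Nd6 and mt-Cytb, and mt-Tp beside the control region. Mature tRNAs carry no poly(A) tail, and whether these counts stand for tRNAs, for precursors or for antisense RNA cannot be told apart from the files.

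The effect of IFNa on cells that also received CpG was compared next. In CpG plus IFNa against CpG, 0 of 14 were called higher and 2 lower by edgeR, where 6.54% and 8.83% of all genes were called, so that the count is near the share of all genes. At an unadjusted p under 0.05, 0 of the 14 would have been higher, and DESeq2 called 0 higher. The log2 fold change of mt-Rnr2 was -0.56 (SE 0.16, adjusted p = 0.0186) and that of mt-Nd2 -0.39 (SE 0.13, adjusted p = 0.0546), and the samples of the 2 groups overlapped in both. mt-Rnr2 lost its call without CpG replicate 2 (log2 fold change -0.37, adjusted p = 0.222) and on the scale of the mitochondrial mRNAs (-0.31, adjusted p = 0.509). mt-Nd2 lost it without unstimulated replicate 3 (0.121), CpG replicate 2 (0.163), CpG replicate 3 (0.294), CpG plus IFNa replicate 1 (0.299) or replicate 2 (0.135), over a range from 0.0122 to 0.299, and it was 0.701 on the scale of the mitochondrial mRNAs. mt-Nd1, at -0.31 (SE 0.13, adjusted p = 0.137, and 0.097 with upper quartile factors), was the only gene without overlap between the groups, against 28.2% of all genes. Its adjusted p ran from 0.0599 to 0.45 over the alternatives, among which the replicate block also called it lower.

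Against IFNa alone, CpG plus IFNa lowered 11 of the 14 genes and raised 1, where 39.8% and 36.1% of all genes were called. The lowest log2 fold change was that of mt-Rnr1, at -2.11 (SE 0.25, adjusted p = 8.13e-09), or -1.48 without IFNa replicate 2. It was -1.40 for mt-Rnr2, -1.39 for mt-Te, -0.92 for mt-Cytb, -0.80 for mt-Co1 and -0.79 for mt-Nd6, and the samples of these genes did not overlap. mt-Nd1 was at -0.13 (adjusted p = 0.39) and mt-Co3 at -0.35 (adjusted p = 0.171), or -0.60 (adjusted p = 9.65e-06) with the counts of its nuclear copy, described below, added. mt-Tp was higher by 0.56 (adjusted p = 0.0751), a call lost without IFNa replicate 1 (0.144) or 3 (0.14) or CpG plus IFNa replicate 2 (0.233) or 3 (0.201), with upper quartile factors (0.121) and with DESeq2 (0.157). mt-Atp6 was at -0.43 (adjusted p = 0.0758), a call that was lost without unstimulated replicate 3 (0.129), IFNa replicate 1 (0.226) or 3 (0.225) or CpG plus IFNa replicate 2 (0.249) or 3 (0.178), by library size only (0.117), with MT and rRNA genes left out of the scaling (0.109), with DESeq2 (0.159) and without the filter (0.342). In the interaction of IFNa and CpG, 1 gene was called higher, mt-Co1, and 1 lower, mt-Rnr1, where 5.84% and 7.58% of all genes were called.

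Within the mitochondrial mRNAs, the composition changed with CpG. Taking the counts of the 13 mRNAs of a sample together as the whole, mt-Nd1 made up 24.7% ± 0.919 in unstimulated cells, 23.1% ± 1.42 with IFNa, 32.7% ± 2.02 with CpG and 30.6% ± 0.196 with CpG plus IFNa (SD, n = 3). mt-Nd2 made up 14.2% ± 0.354, 15.2% ± 0.644, 17.7% ± 1.26 and 15.7% ± 0.788 in the same order. All samples with CpG were thus above all others for mt-Nd1, at 30.4% or more. The share of mt-Cytb went the other way, with 17.4% ± 1.27, 16.5% ± 0.330, 12.2% ± 0.433 and 12.5% ± 0.503, and that of mt-Co1 with 6.14% ± 0.281, 4.52% ± 0.0480, 3.46% ± 0.0876 and 3.74% ± 0.0707. mt-Co1 differed little between replicates, from 5.82% to 6.34%, 4.46% to 4.55%, 3.38% to 3.55% and 3.65% to 3.78%, and none of these 4 ranges overlapped. mt-Nd4 was at 19.7%, 19.4%, 16.8% and 17.9%, mt-Nd5 at 8.83%, 9.87%, 9.04% and 9.95%, and mt-Nd6 at 8.65%, 10.97%, 7.64% and 9.11%. A share of the whole must fall where another rises, and these are shares of counts captured with oligo(dT), not of transcripts. No test was made of them.

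Where nearly all windows are shared, the copies in the nuclear genome carried more counts than the mitochondrial genes. The 5 mRNAs with nearly all of their windows shared had 1688 counts in the 12 samples together, and their copies 19628. Gm28437 had 10047 counts where mt-Co3 had 333, Gm10925 had 1897 where mt-Atp6 had 435, and Gm28661 and Gm13341 had 3688 and 3636 where mt-Co2 had 900. Gm13341 shares only 20.9% of the windows of mt-Co2, and its counts are among the 19628. Gm28438 had 331 where mt-Nd3 had 13, and Gm10222 had 29 where mt-Nd4l had 7. For mt-Nd4, with 61.3% of its windows shared, the order was the opposite, with 74980 counts on the mitochondrial gene and 976 on Gm28439. Reads of the mitochondrial gene placed on a copy and RNA of the copy itself cannot be told apart from the counts.

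With CpG, Gm29216 and Gm13340, which match 27.2% and 12.15% of mt-Co1, had log2 fold changes of -1.41 (adjusted p = 3.87e-10) and -1.40 (adjusted p = 6.52e-11), beside -1.45 for mt-Co1. Gm28661 and Gm13341 were at -0.89 (adjusted p = 6.31e-07) and -0.99 (adjusted p = 2.31e-07), beside -0.92 for mt-Co2, and Gm10925 at -0.91 (adjusted p = 3.6e-07), beside -0.86 for mt-Atp6. These values of a gene and its copies are from the same 12 libraries. Gm28437, with more counts than mt-Co3, was at -0.27 (adjusted p = 0.0265) with CpG and -0.52 (adjusted p = 9.64e-05) with both stimuli, both called lower. Gm28439 was at -0.31 (adjusted p = 0.288), beside -0.86 for mt-Nd4. Gm13339, which matches 5.12% of mt-Nd2, was at 0.30 (adjusted p = 0.229), beside -0.30 for mt-Nd2, the opposite sign. When the counts of copies were added to their mitochondrial genes, mt-Co3 was called lower with CpG (-0.28, adjusted p = 0.0246) and with both stimuli (-0.51, adjusted p = 0.000106). mt-Nd3 then passed the filter and was at -0.56 (adjusted p = 0.0533) with CpG and -0.94 (adjusted p = 0.0018) with both. Counting mt-Nd3 beside the 14 genes tested before, 11 were then called lower with CpG and 14 with CpG plus IFNa against unstimulated cells. Of all 9423 genes in this fit, 7064 and 7193 were called in either direction. mt-Tp stayed higher, at 1.49 (adjusted p = 7.86e-05) with CpG and 0.99 (adjusted p = 0.00608) with both.

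**Figure D4:**
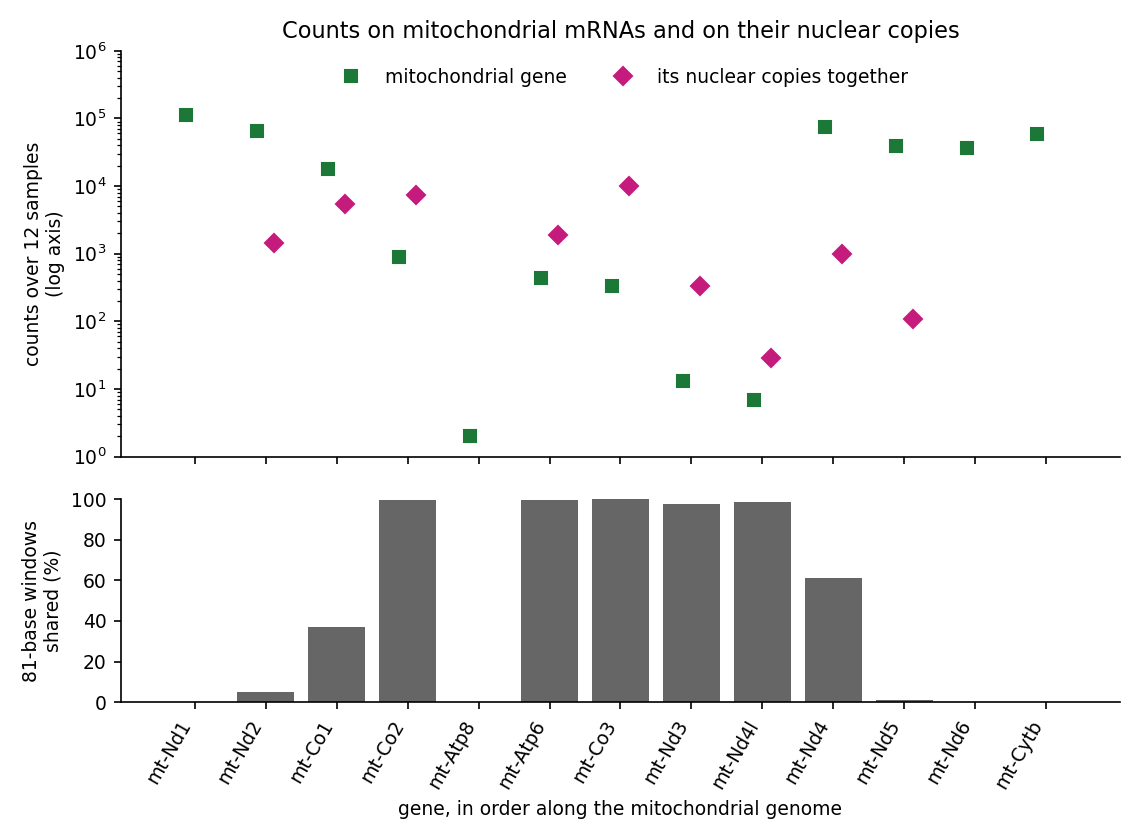
Counts in the 12 samples together on each of the 13 mitochondrial mRNAs (squares) and on its nuclear copies together (diamonds) on a log axis, above the share in percent of its 81-base windows that a copy shares (bars). Where 97.8% or more of the windows are shared the copies lie above the gene, and for mt-Nd4, at 61.3%, far below it.

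The nuclear genes for the same complexes went in the other direction with CpG. Of 75 nuclear subunits of complexes I, III, IV and V tested, 68 were higher and 2 lower with CpG, with a median log2 fold change of 1.06, where 36.5% of all genes were called higher and 38.4% lower. With CpG plus IFNa 65 were higher and 7 lower, with a median of 0.90, against 37.6% and 38.8% of all genes. With IFNa alone 5 were higher (median 0.10), where 12.4% of all genes were. Of the 36 nuclear subunits of complex I, 32 rose with CpG, among them Ndufab1 by 2.24 and Ndufa12 by 2.31. Of the 9 of complex III, 8 rose, with Cyc1 (cytochrome c1) at 1.97 and Uqcrq at 1.99, and Uqcrh was at -0.23 (adjusted p = 0.0995), a call lost without the filter (0.336) and with any of 10 libraries left out other than unstimulated replicate 3 and IFNa replicate 2 (0.118 to 0.297). Complex IV had 11 higher and 1 lower of 12, with Cox7b at 1.33, Cox7a2 at 1.48 and Cox7a2l, which takes part in supercomplex assembly, at -1.77. Of the 18 of complex V, 17 rose, with Atp5b, the catalytic beta subunit, at 1.83 and Atp5g1 at 2.03. In complex II, which has no mitochondrially encoded subunit, 3 of 4 rose, and Sdha was at -0.27 (adjusted p = 0.0545), a call lost without the filter (0.267), without unstimulated replicate 1 (0.193) or 2 (0.222) and without CpG replicate 2 (0.222) or 3 (0.211).

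In CpG plus IFNa against CpG, 23 of these 75 were lower (median -0.25), and 2 mitochondrial genes of 14, where 8.83% of all genes were called lower. Ndufb10 was at -0.77 (adjusted p = 2.08e-05), Uqcr11 at -0.60 (adjusted p = 0.00219), Cox7b at -0.37 (adjusted p = 0.0137, and 0.15 without the filter) and Atp5k at -0.49 (adjusted p = 0.00314). In the interaction 13 of the 75 were lower, where 7.58% of all genes were. The lists were chosen with results of these samples known, and counts within them describe the lists only.

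**Figure D5:**
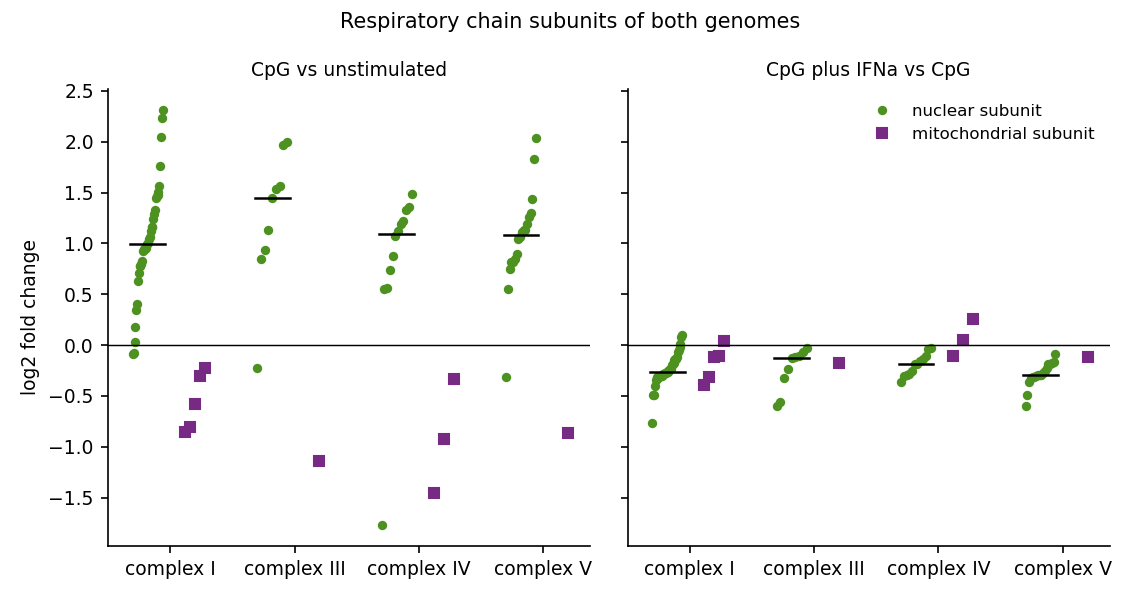
Log2 fold changes of the subunits of respiratory complexes with CpG against unstimulated cells (left) and with CpG plus IFNa against CpG (right), with 1 circle for each nuclear and 1 square for each mitochondrial gene and a line at the median of the nuclear ones. With CpG, of 10 mitochondrial mRNAs tested 8 were called lower, and of 75 nuclear subunits 68 were called higher and 2 lower.

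The nuclear genes that maintain and express the mitochondrial genome were also followed, and the counts of these lists with CpG stand beside 36.5% of all genes called higher and 38.4% lower. Of 8 genes of mitochondrial transcription tested, 5 rose with CpG, with the ribosomal protein and polymerase cofactor Mrpl12 at 2.26, the elongation factor Tefm at 2.22 and the initiation factor Tfb2m at 1.16. In CpG plus IFNa against CpG Tfb2m was at -0.60 (adjusted p = 0.0915), a call lost with DESeq2 (0.349), without the filter (0.317), with MT and rRNA genes left out of the scaling (0.119), on the scale of the mitochondrial mRNAs (0.444) and with any of 6 libraries left out: unstimulated replicate 3 (0.133), CpG replicate 1 (0.242) or 2 (0.269), or CpG plus IFNa replicate 1 (0.164), 2 (0.159) or 3 (0.212). Of 23 genes of RNA processing, polyadenylation and decay, 20 rose and 3 fell, with the oligoribonuclease Rexo2 at 2.002, the mRNA-binding protein Lrpprc at 1.73 and the CCA-adding enzyme Trnt1 at 1.78 among the first, and Rmnd1 at -1.15, Ptcd1 at -0.83 and Angel2 at -0.49 among the second. In CpG plus IFNa against CpG, the polynucleotide phosphorylase Pnpt1 rose by 0.51 (adjusted p = 0.0185, and 0.125 without CpG replicate 1), and Hsd17b10, a subunit of mitochondrial RNase P, was at -0.61 (adjusted p = 0.00181).

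Of 17 genes of mitochondrial DNA replication and nucleotide supply, 8 were higher and 7 lower with CpG, shares near those of all genes. Atad3a rose by 2.61, the pyrimidine nucleotide carrier Slc25a33 by 2.94 and the single-stranded DNA-binding protein Ssbp1 by 1.48. The deoxynucleoside kinases Tk2 and Dguok were at -2.79 and -1.35, and the carrier Slc25a36 at -1.58. Of 23 genes of rRNA and tRNA modification 9 rose, with Pus1 at 1.57, and the other 14 did not pass the threshold. Of 18 genes of mitochondrial translation and membrane insertion 12 rose and 2 fell, with the elongation factors Tsfm at 2.25 and Tufm at 1.48. The 2 that fell were the insertase Oxa1l at -0.60 and the leucyl-tRNA synthetase Lars2 at -0.47. Of 19 genes of mitochondrial mass and protein import 16 rose and 1 fell, with the chaperones Hspd1 at 3.58 and Hspa9 at 2.53, the import channel Tomm40 at 2.56 and the nuclear receptor Esrra at -1.64. Changes are given as log2 fold changes throughout, and all those named for CpG passed the threshold.

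The identity of the cells and other values that moved with the groups are given beside these results. The 6 B cell markers together were at 6433 to 7348 CPM in unstimulated samples, 6640 to 7494 with IFNa, 1324 to 1471 with CpG and 1181 to 1283 with CpG plus IFNa, and the 3 markers of follicular B cells at 4366 to 5003, 3025 to 3599, 924 to 1098 and 842 to 966. The 5 T cell markers in the table summed to at most 3.61 CPM, with Cd3g and Cd8a at 0 in all samples, and the 7 myeloid markers to between 29.7 and 52.9 CPM in unstimulated samples and at most 8.33 elsewhere. The 5 erythroid markers summed together ranged from 56.7 to 341 CPM in unstimulated samples, 15.1 to 334 with IFNa, 4.96 to 60.4 with CpG and 5.61 to 71.6 with both, and in each of the 4 groups the sample numbered 1 was the highest and that numbered 3 the lowest. Markers of marginal zone B cells summed to 221 to 229 CPM in unstimulated samples, 89.2 to 123 with IFNa, 43.3 to 56.6 with CpG and 27.7 to 37.3 with both. The 3 markers of plasmacytoid dendritic cells, of which Siglech was at 0 in all samples and 1, Tcf4, passed the filter, were at 244 to 306, 424 to 444, 153 to 164 and 141 to 227 in the same order. Those of plasma cells were at 252 to 376, 179 to 208, 185 to 204 and 199 to 269. Of the last, Sdc1 had a log2 fold change of -3.37 (adjusted p = 2.26e-08) and Xbp1 of -0.59 (adjusted p = 0.003) with CpG, and in CpG plus IFNa against CpG they were at -0.72 (adjusted p = 0.581) and -0.42 (adjusted p = 0.12). Irf4 was at -0.57 (adjusted p = 0.00142) with CpG, a call lost without unstimulated replicate 1 (-0.25, adjusted p = 0.119), and at 0.48 (adjusted p = 0.0238) in CpG plus IFNa against CpG, a call lost without CpG plus IFNa replicate 3 (0.106). NK cell markers summed to at most 1.22 CPM. Of 9 genes of RNA quality and stress tested, 2 were higher and 6 lower with CpG, with the nuclear RNAs Malat1 at -2.49 and Neat1 at -3.99 and, of the pro-apoptotic genes, Bax at 2.36, Bbc3 at 0.76 (adjusted p = 0.053) and Pmaip1 at -2.37. The call of Bbc3 was lost without unstimulated replicate 2 (0.287) or 3 (0.206) or CpG replicate 2 (0.213). In CpG plus IFNa against CpG 4 of the 9 were higher, with a median log2 fold change of 0.40, where 6.54% of all genes were. Among them Atf3 was at 1.32 (adjusted p = 0.00152, and 0.283 with DESeq2). Malat1 was at 0.64 (adjusted p = 0.048), a call lost with DESeq2 (0.365) and without CpG replicate 1 (0.259) or CpG plus IFNa replicate 2 (0.457), and Bax at 0.36 (adjusted p = 0.0254), a call lost without CpG replicate 1 (0.114) or 3 (0.152) or CpG plus IFNa replicate 2 (0.144). The part of these cells and genes in the mitochondrial results was not tested.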

How the data were processed

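The authors reverse transcribed RNA of sorted FO B cells with barcoded oligo(dT) primers, sequenced inserts of 81 bases and deposited UMI counts per gene without normalization. The labels name the miRNeasy Micro Kit, the paper's methods another kit of the same maker. By the submitters' processing notes and the methods, the authors used UMI-tools 1.1.2, Trim Galore 0.6.7, HISAT2 2.2.1 on GRCm38 and featureCounts 2.0.1 to make the deposited counts. Strand setting, treatment of reads with several positions and of overlapping genes, and the annotation release are not given in the sources used here. Positions and sequences are from GENCODE M21 transcripts.

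The counts were scaled with TMM and filtered with filterByExpr, given the groups, in edgeR 4.0.16 (R 4.3.3). Its quasi-likelihood test was then run on the 9431 remaining genes in 1 fit of all groups, with 8 residual degrees of freedom and Benjamini-Hochberg adjustment over all of them. The interaction is the effect of IFNa with CpG minus that without. Standard errors were derived from the test, as the absolute log2 fold change divided by the square root of the F statistic. Alternatives were other scalings (among them one on mitochondrial mRNA), DESeq2 1.42.0, no filter, stricter thresholds, a replicate block and leaving out each library. Adding the counts of nuclear copies was chosen after seeing the data. The fit was tested on simulated data. All protein-coding and rRNA genes of chromosome MT are named, with the tRNA genes that passed the filter and the others by their counts. Of each nuclear list, named genes are among the 3 called genes with the smallest p in each direction with CpG or with CpG plus IFNa against CpG. The members and lists were chosen with earlier results of these data known. Depth was 922450 to 2923865 counts per sample. With 1048576 possible UMIs, at most 2.73% of the molecules of a member would be lost to equal UMIs. Within groups, chi-square per degree of freedom between samples was 1.90 to 6.31, so that none was a copy of another. A gene of the fixed lists is not reported here.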

Additional observations from a re-analysis of the deposited data

Results flagged for a closer look

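The effect of IFNa on 2 mitochondrial genes differed with and without CpG, by a test of the difference itself (the interaction term of edgeR's quasi-likelihood fit). For mt-Co1 the interaction was 0.65 (SE 0.17, adjusted p = 0.012): IFNa gave a log2 fold change of -0.75 without CpG and -0.10 with it. The interaction stayed past the threshold with each of the 12 libraries left out, with adjusted p-values from 0.00143 to 0.0541 over the alternatives other than the scale set by mitochondrial mRNA, on which it was lost (0.55, adjusted p = 0.355). For mt-Rnr1 it was -1.78 (SE 0.35, adjusted p = 0.000763), with log2 fold changes of 1.54 without CpG and -0.24 with it. Without IFNa replicate 2, in which mt-Rnr1 was at 25938 CPM against 12347 and 7526 in the other IFNa samples, the interaction was -1.17 (adjusted p = 0.00112). The nuclear copy Gm29216, which shares windows with mt-Co1, had an interaction of 0.58 (adjusted p = 0.0707), and Gm13340 of 0.49 (adjusted p = 0.101). Reads of mt-Co1 placed on these copies and RNA of the copies cannot be told apart, so these values are no separate support. Gm13339, which matches part of mt-Nd2, had the lowest interaction of the copies at -1.06 (adjusted p = 0.0234), whereas mt-Nd2 was at -0.18 (adjusted p = 0.633).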

How the results depend on the processing

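Of 1848 rechecked values of mitochondrial genes, 1690 kept their side of the threshold, 115 lost and 30 gained a call, and 13 turned sign with a call in either fit. Of the 1690, 70 that were called in neither fit changed sign, at -0.23 to 0.41, and the others kept it. All turned signs of called values came with the scale set by mitochondrial mRNA, which by construction removes what these mRNAs share and moved the median of all genes by 0.31 (IFNa), 0.63 (CpG) and 0.84 (CpG plus IFNa), by 0.21 against CpG and by 0.54 against IFNa. On it, the log2 fold changes with CpG were 0.035 for mt-Nd5, 0.32 for mt-Nd2, 0.14 for Angel2, 0.013 for Oxa1l, 0.17 for Lars2, 0.41 for Uqcrh, 0.38 for Sdha, 0.080 for Irf4 and 0.040 for Xbp1. With CpG plus IFNa they were 0.21 for mt-Te, 0.075 for mt-Nd6, 0.17 for mt-Nd5, 0.56 for mt-Co3, 0.18 for mt-Co2, 0.14 for mt-Nd2, 0.31 for mt-Nd1 and 0.31 for mt-Rnr1, and against IFNa 0.012 for mt-Nd5, 0.11 for mt-Atp6 and 0.042 for mt-Nd2. Genes called lower were then 0 with IFNa, 2 with CpG, 3 with CpG plus IFNa, 0 against CpG and 3 against IFNa; 2 were higher with CpG plus IFNa and 0 in the interaction. With a fold over 2 added, 1 gene was higher and 0 lower with IFNa, 2 lower with CpG, 0 higher and 3 lower with CpG plus IFNa, 0 lower against CpG, 0 higher and 3 lower against IFNa, and 0 higher in the interaction. At an adjusted p under 0.05, IFNa gave 1 higher and 3 lower, and CpG plus IFNa 1 lower against CpG and 0 higher against IFNa. With IFNa 1 gene was higher by library size only and by DESeq2, and against IFNa 0 were higher with upper quartile factors and by DESeq2. In the interaction 2 were lower without the filter. Upper quartile factors moved the median of all genes by -0.11 (CpG) and -0.13 (CpG plus IFNa). With 1 library left out, IFNa gave 1 to 2 higher and 1 to 5 lower, CpG 8 to 11 lower, CpG plus IFNa 10 to 12 lower, 0 to 3 lower against CpG and 0 to 1 higher against IFNa, and the interaction 1 to 2 lower. Without rRNA genes the mitochondrial share was 3.24%, 2.52%, 2.05% and 1.75%. The replicate block gave 11 lower with CpG, 3 against CpG (with mt-Nd1, adjusted p = 0.0707) and 2 in the interaction. Same-numbered samples correlated at -0.0651 to 0.205 in their deviations, over 0.1 in 5 of 18 pairs, and 10 of 12 samples correlated best with their own number, a hint from the data and not from the design. The causes of lost calls were not tested. Genes with no sample over 3 counts could not be measured at this depth.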
